A study of Mus musculus with 2 samples.

Results

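The cholesterol synthesis enzymes described here are 9 genes, taken by name from the 27998 genes of each count matrix and not by a limit on their values. In pathway order they are Hmgcs1, Mvd, Idi1, Fdps, Fdft1, Sqle, Lss, Cyp51 and Sc5d. Hepatocytes, which carry out most of the liver's metabolism, were released from the livers of C57BL/6 mice with collagenase and profiled by droplet single-cell RNA-Seq with 10x Genomics version 2 chemistry, which counts the 3′ end of each captured transcript once by a unique molecular identifier (UMI). The series held 1 library from healthy liver (0 h) and 1 library from liver taken 48 h after partial hepatectomy (PHx), an operation that takes away most of the organ and is followed by regrowth of the remnant. Each library came from 1 preparation of hepatocytes from an adult male mouse. Both groups were fed a normal diet, the labels give an age of 10 to 12 weeks at surgery where the study's methods give a slightly lower one, and no transgene or drug is named for either group. The labels of both libraries name PHx surgery as the protocol, while the 0 h liver is labelled as healthy. With 1 library per time point, time after surgery, mouse, preparation and sequencing run cannot be told apart, no test between time points was possible, and every interval below is a 95% interval for counting error only.

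Each library was divided by the share of UMIs from the 13 genes of the mitochondrial genome (mt share), and barcodes above 30% and under 2% were described separately. The 0 h library held 59202 barcodes with at least 1183 UMIs each, and the 48 h library held 1586 with at least 4578. These are all barcodes of the deposited matrices and were not taken as counts of cells. The study itself analysed far fewer cells at 0 h, and fewer at 48 h, after it excluded cells with high mitochondrial content. Barcodes above 30% mt numbered 3870 at 0 h (6.54% of the library) and 765 at 48 h (48.2%), while barcodes under 2% mt numbered 52587 (88.8%) and 522 (32.9%). Levels are given as CPM, the UMIs of a gene per 1000000 UMIs outside the mitochondrial genes, summed over a set of barcodes, and these denominators were 5778391 and 5103719 UMIs above 30% mt and 78751891 and 3135996 under 2% mt, at 0 h and 48 h respectively. All 10 hepatocyte markers were detected in every set, with a summed level of 69034 to 125652 CPM, and the lowest sum was that of barcodes under 2% mt at 48 h. Markers of T and NK cells, B cells and neutrophils held 0 or 1 UMI per list in both sets at 48 h. The 10 stellate and stromal markers summed to 26.5 to 29.8 CPM in 3 sets and to 166 CPM under 2% mt at 48 h. The 5 erythroid markers summed to 246 CPM under 2% mt at 0 h against 27.6 to 54.5 CPM elsewhere. Most of the sum elsewhere was Alas2, at 26.1 to 50.5 CPM against 83.9 CPM in that set. The globin gene Hbb-bs had 75.2 CPM in that set and 0.32 to 1.90 CPM elsewhere. Under 2% mt, 143 barcodes at 0 h and 6 at 48 h carried at least 0.5% of their non-mitochondrial UMIs from markers of other cell types, and 148 barcode sequences occurred in both libraries.

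Cholesterol is built from acetyl-CoA through mevalonate, and the isoprenoid units made from mevalonate are joined into squalene, which is oxidised, closed into the sterol ring of lanosterol and trimmed to cholesterol. The liver is a major site of this synthesis and exports cholesterol in lipoproteins and as bile acids. Most genes of the pathway are known targets of the transcription factor SREBP2 (gene Srebf2), which is held in the endoplasmic reticulum with its escort Scap by the Insig proteins when sterols are plentiful, and which binds sterol regulatory elements beside NF-Y, a factor that binds CCAAT, and Sp1, which binds GC boxes.

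Because all 9 genes share this known control, the promoters of the first members with an entry are shown, from 250 bases before to 50 bases after the start of transcription (RefSeq, GRCm38.p6), read 5′ to 3′ on the strand of the gene. Capitals mark matches to the SRE-type motif TCACNCCAC and to CCAAT on either strand, which reads ATTGG on the opposite one. Promoters were found for 6 of the 9 members, Hmgcs1, Mvd, Idi1, Lss, Cyp51 and Sc5d, and the first 5 are printed. They lie at chr13:119690101-119690400 (+) for Hmgcs1, chr8:122443373-122443672 (-) for Mvd, chr13:8885356-8885655 (+) for Idi1, chr10:76531355-76531654 (+) for Lss and chr5:4104648-4104947 (-) for Cyp51.
Hmgcs1: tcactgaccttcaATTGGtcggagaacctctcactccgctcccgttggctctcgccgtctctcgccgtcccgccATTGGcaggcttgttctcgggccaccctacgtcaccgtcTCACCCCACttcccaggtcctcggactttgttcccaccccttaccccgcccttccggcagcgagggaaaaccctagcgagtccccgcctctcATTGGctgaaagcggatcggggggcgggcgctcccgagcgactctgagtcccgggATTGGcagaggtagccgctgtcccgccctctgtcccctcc
Mvd: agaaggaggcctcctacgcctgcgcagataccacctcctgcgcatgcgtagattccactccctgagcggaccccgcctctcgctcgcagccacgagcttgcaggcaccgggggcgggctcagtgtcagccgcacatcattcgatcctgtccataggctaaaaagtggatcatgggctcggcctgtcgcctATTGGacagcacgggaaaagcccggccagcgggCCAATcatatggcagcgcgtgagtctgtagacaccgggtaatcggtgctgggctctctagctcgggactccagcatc
Idi1: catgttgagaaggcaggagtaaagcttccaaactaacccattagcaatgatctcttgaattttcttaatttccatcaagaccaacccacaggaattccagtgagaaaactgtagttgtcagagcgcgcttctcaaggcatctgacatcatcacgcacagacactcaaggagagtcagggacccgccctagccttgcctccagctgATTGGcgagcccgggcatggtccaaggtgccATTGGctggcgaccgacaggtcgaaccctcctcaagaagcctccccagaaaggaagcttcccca
Lss: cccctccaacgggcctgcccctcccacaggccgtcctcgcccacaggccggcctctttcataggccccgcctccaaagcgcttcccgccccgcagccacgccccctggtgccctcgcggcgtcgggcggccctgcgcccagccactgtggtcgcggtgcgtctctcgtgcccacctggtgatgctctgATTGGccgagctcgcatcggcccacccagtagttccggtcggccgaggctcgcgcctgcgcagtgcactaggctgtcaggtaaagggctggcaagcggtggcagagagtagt
Cyp51: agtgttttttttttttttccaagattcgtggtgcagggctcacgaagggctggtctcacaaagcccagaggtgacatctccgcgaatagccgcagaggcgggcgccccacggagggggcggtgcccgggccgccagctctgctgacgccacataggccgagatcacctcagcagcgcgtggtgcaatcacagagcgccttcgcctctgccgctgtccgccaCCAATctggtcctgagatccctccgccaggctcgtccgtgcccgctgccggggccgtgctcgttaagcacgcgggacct
The SRE-type motif occurred in 1 of the 6 member promoters, that of Hmgcs1 at -137 relative to the start, as TCACCCCAC, and in 408 of 32851 promoters (1.24%) of the same 300 bases across the genome. CCAAT occurred in 6 of 6 member promoters and in 37.4% of all promoters, and the GC box GGGCGG in 6 of 6 and in 35.7%. All motifs were searched on both strands, and no 2 matches overlapped in the 6 promoters. A match describes the letters of these windows and does not show a bound site.

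Above 30% mt, 8 of the 9 enzymes were lower at 48 h than at 0 h and 1, Lss, was higher, and the counting interval left out 0 for 7 of the lower ones and for Lss. Their summed level was 2172 CPM (2134 to 2211) at 0 h and 1318 CPM (1287 to 1350) at 48 h, a log2 ratio of -0.72 (-0.76 to -0.68). At least 2-fold lower were 2 of the 9, Fdft1 and Cyp51, against 5.61% of the 6349 genes with a mean of at least 10 CPM over the 4 sets, and 0 of the 9 were at least 2-fold higher against 32.0% of these genes. Of these genes, 72.2% of those with a ratio were higher at 48 h. The median log2 ratio was -0.60 for the 9 enzymes and 0.58 for all these genes, so that the enzymes stood 1.18 below the median gene, a distance that rescaling of the libraries leaves unchanged. The ratio of 48 h over 0 h itself moved with the scaling, and 6 of the 9 were at least 2-fold lower under TMM or DESeq2 size factors. These scalings lowered the ratio of every gene, to a median of 0.09 and 0.05, and no share of all genes is given for them. Under these, Lss stood at 0.14 (-0.11 to 0.40) and 0.10 (-0.15 to 0.36), so that its interval held 0.

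Under 2% mt, all 9 enzymes were lower at 48 h, and every counting interval left out 0. The summed level was 2952 CPM (2940 to 2964) at 0 h and 1108 CPM (1072 to 1146) at 48 h, a log2 ratio of -1.41 (-1.46 to -1.36). At least 2-fold lower were 6 of the 9, Hmgcs1, Idi1, Fdft1, Sqle, Cyp51 and Sc5d, against 21.7% of all genes tested, and 0 were at least 2-fold higher against 23.2%. The median log2 ratio was -1.25, against 0.02 over all genes, of which 50.6% were higher at 48 h. The 0 h class here is most of a library with far more barcodes than the 48 h one, and its enzyme UMIs were spread over barcodes almost as counting alone would spread 1 common level (variance-to-mean ratio 1.01 at equal depth). How much of its UMIs came from free RNA in droplets was not tested. The raised stellate markers named above belonged to the same 48 h set, and without the barcodes that carried markers of other cell types the median was -1.25 and the count was 6. This filter took out only 6 of the 522 barcodes at 48 h and so could move the median little. The part of the stellate markers was not tested. The 10 hepatocyte markers summed to 101072 CPM at 0 h and 69034 CPM at 48 h in this class, against 125652 and 121072 CPM above 30% mt. Under 2% mt, 4 of the 10 were higher at 48 h and 6 were lower, and Alb alone had 47844 CPM at 0 h and 22124 CPM at 48 h. The part of these markers in the result was not tested. The time ratio of the sum was higher above 30% mt than under 2% mt by 0.69 (0.63 to 0.76) on the log2 scale, against 0.55 for the median of all genes.

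**Figure D1:**
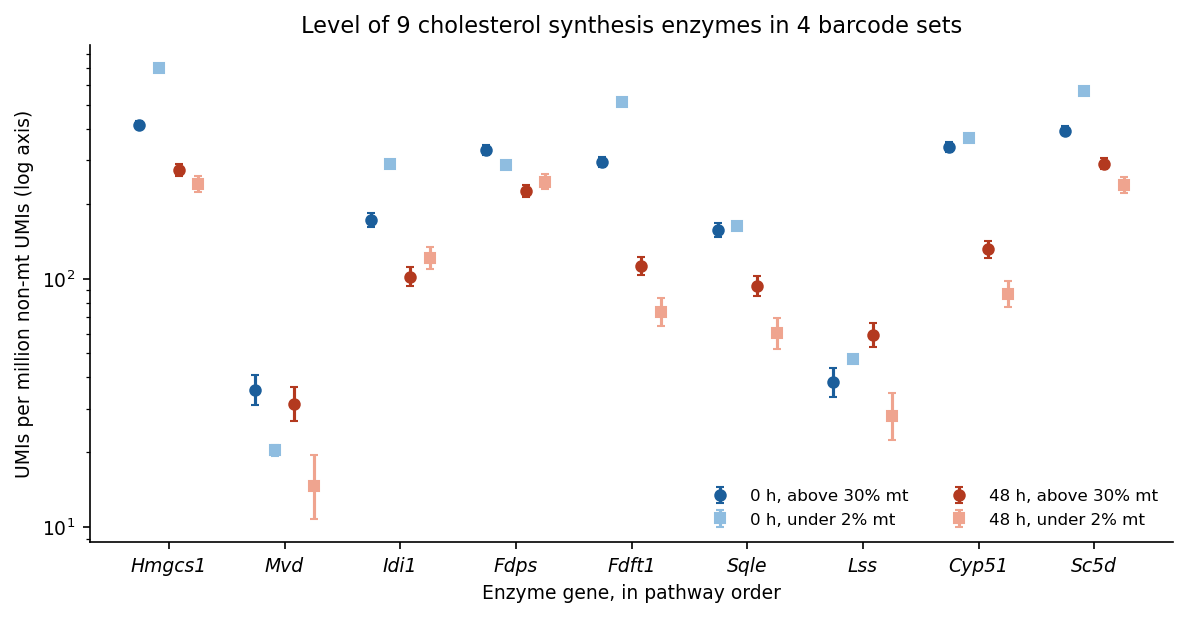
Level of each enzyme in CPM on non-mitochondrial UMIs (vertical log axis) for the 9 genes in pathway order, with circles for barcodes above 30% mt, squares for barcodes under 2% mt, blue for 0 h and red for 48 h, and bars for 95% Poisson intervals of counting error. In 8 of 9 genes the dark red circle lies below the dark blue circle, with Lss the exception at 59.4 against 38.4 CPM, and in all 9 the light red square lies below the light blue one.

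The early enzymes of the list lead from acetyl-CoA units to the isoprenoid farnesyl diphosphate. Hmgcs1 (chr13:119690379-119708260, GRCm38, + strand) encodes cytosolic HMG-CoA synthase, which makes the precursor of mevalonate. Above 30% mt it had 414 CPM (398 to 431) at 0 h and 273 CPM (259 to 288) at 48 h, and under 2% mt it had 699.7 CPM (694 to 706) and 240.1 CPM (223 to 258). Its log2 ratio of 48 h over 0 h was -0.60 (-0.70 to -0.51) above 30% mt and -1.54 (-1.65 to -1.44) under 2% mt. At 48 h the barcodes from 2% to 10% mt held less Hmgcs1 than either class, 170.3 CPM (146 to 198). Those from 10% to 30% mt had 227.0 CPM (208 to 248), an interval that overlapped that under 2% mt. Mvd (chr8:122433601-122443422, - strand) encodes mevalonate diphosphate decarboxylase, which makes the first isoprenoid unit, and it was the gene with the fewest UMIs. It had 35.7 CPM (30.9 to 40.9) at 0 h and 31.3 CPM (26.7 to 36.6) at 48 h above 30% mt, and 20.4 CPM (19.4 to 21.4) and 14.7 CPM (10.7 to 19.6) under 2% mt. Its ratio above 30% mt was -0.19 (-0.49 to 0.12), an interval that held 0, and it was -0.67 (-0.98 to -0.37) under TMM and -0.71 (-1.02 to -0.40) under DESeq2 size factors, while under 2% mt it was -0.48 (-0.93 to -0.05), on 46 UMIs at 48 h.

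Idi1 (chr13:8885501-8892451, + strand) encodes the isomerase that interconverts the isoprenoid building blocks. It had 172 CPM (161 to 183) at 0 h and 102 CPM (93.1 to 111) at 48 h above 30% mt, and 288 CPM (284 to 291) and 121 CPM (110 to 134) under 2% mt. The log2 ratios were -0.76 (-0.91 to -0.60) and -1.24 (-1.39 to -1.10). Fdps (chr3:89093588-89101959, - strand) encodes farnesyl diphosphate synthase, whose product also feeds protein prenylation. It had 330.02 CPM (315 to 345) at 0 h and 225 CPM (212 to 239) at 48 h above 30% mt, and 286 CPM (282 to 289.6) and 246 CPM (228 to 264) under 2% mt. Its ratios were -0.55 (-0.66 to -0.44) and -0.22 (-0.32 to -0.12). The ratio of Fdps was lower above 30% mt than under 2% mt, with a difference of -0.33 (-0.48 to -0.18) on the log2 scale, while that of the other members was higher. Under TMM the ratio of Mvd was lower above 30% mt as well (a difference of -0.09), and under DESeq2 size factors those of Mvd (-0.26) and Idi1 (-0.067).

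The steps into and through squalene came next. Fdft1 (chr14:63145150-63179578, - strand) encodes squalene synthase, the first enzyme used by sterols alone. It had 294 CPM (279.9 to 308) at 0 h and 113 CPM (104 to 122) at 48 h above 30% mt, and 514 CPM (509 to 519.5) and 73.7 CPM (64.5 to 83.8) under 2% mt. The log2 ratio was -1.38 (-1.52 to -1.24) above 30% mt and -2.80 (-3.00 to -2.62) under 2% mt, where the 48 h level was 0.143 of the 0 h level. Fdft1 had the lowest ratio of the 9 in both mt classes, and the gap between the classes was 1.42 (1.19 to 1.65). Sqle (chr15:59315077-59331192, + strand) encodes squalene epoxidase, a control point of the pathway. It had 157 CPM (147 to 168) at 0 h and 93.5 CPM (85.3 to 102) at 48 h above 30% mt, and 162 CPM (159 to 165) and 60.3 CPM (52.0 to 69.5) under 2% mt. Its ratios were -0.75 (-0.91 to -0.59) and -1.43 (-1.64 to -1.22).

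Lss and Cyp51 act one after the other and had unlike time ratios above 30% mt. Lss (chr10:76531588-76557138, + strand) encodes lanosterol synthase, which closes the sterol ring. It had 38.4 CPM (33.5 to 43.8) at 0 h and 59.4 CPM (52.9 to 66.4) at 48 h above 30% mt, and 47.7 CPM (46.2 to 49.2) and 28.1 CPM (22.5 to 34.6) under 2% mt. Its log2 ratio was 0.63 (0.37 to 0.88) above 30% mt, close to the median of all genes (0.58), and -0.77 (-1.09 to -0.46) under 2% mt. The ratios in the 2 classes differed by 1.39 (0.999 to 1.79). Cyp51 (chr5:4081145-4104746, - strand) encodes lanosterol demethylase, which starts the trimming of lanosterol. It had 337 CPM (323 to 353) at 0 h and 131 CPM (121 to 141) at 48 h above 30% mt, and 366 CPM (362 to 371) and 86.7 CPM (76.7 to 97.7) under 2% mt. Its ratios were -1.36 (-1.49 to -1.24) and -2.08 (-2.26 to -1.91), the next lowest after Fdft1 in each class, with overlapping intervals above 30% mt. Sc5d (chr9:42251595-42264256, - strand) encodes sterol desaturase, which acts near the end of the pathway. It had 393 CPM (377 to 409.9) at 0 h and 290.2 CPM (276 to 305) at 48 h above 30% mt, and 567 CPM (562 to 573) and 238 CPM (221 to 256) under 2% mt. Its ratios were -0.44 (-0.53 to -0.34) and -1.25 (-1.36 to -1.15).

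The order of the enzymes by UMIs, which in 3′ counting do not grow with transcript length, changed between the sets. Hmgcs1 was first in both sets at 0 h, Sc5d was first above 30% mt at 48 h with an interval that overlapped that of Hmgcs1, and under 2% mt at 48 h Fdps, Hmgcs1 and Sc5d led with overlapping intervals. Under 2% mt, Fdps went from 9.68% of the members' UMIs at 0 h to 22.2% at 48 h, while Fdft1 went from 17.4% to 6.65%. Above 30% mt, Fdft1 went from 13.5% to 8.55% and Lss from 1.77% to 4.50%. Lss and Mvd were the last 2 in every set, at 0.691% to 4.50% of the members' UMIs each.

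Within a library, the enzymes were also compared between the classes of mt share. At 0 h the sum above 30% mt stood at a log2 ratio of -0.44 (-0.47 to -0.42) to that under 2% mt, and 0 of 9 members were at least 2-fold higher (10.8% of all genes) and 0 at least 2-fold lower (11.4%). Fdft1 (-0.81), Hmgcs1 (-0.76), Idi1 (-0.74) and Sc5d (-0.53) were lower above 30% mt, Lss (-0.31) and Cyp51 (-0.12) were lower by less, Mvd (0.81, 0.59 to 1.02) and Fdps (0.21) were higher, and the interval of Sqle held 0. At 48 h the sum stood at 0.25 (0.19 to 0.31), and the median of the members was 0.60 against 0.53 over all genes. Mvd (1.10) and Lss (1.08) were at least 2-fold higher above 30% mt, 2 of 9 against 32.7% of all genes, and 0 of 9 were at least 2-fold lower against 7.26%. The nuclear RNAs Malat1 and Neat1 summed to 5964 CPM above 30% mt and 2306 under 2% mt at 0 h, and to 3423 and 2248 CPM at 48 h, and their part in these differences was not tested. The direction at 48 h depended on the scaling: Hmgcs1 and Sc5d (0.19 and 0.29) were lower above 30% mt under TMM, under DESeq2 size factors and when scaled by all UMIs, and by all UMIs the members' median was -0.53, as it was -1.18 at 0 h. The 2 members past 2-fold at 48 h became 0 under each of these scalings. All UMIs include the mitochondrial ones that define the classes. Scaled so, the median of all genes was -0.60 at 48 h and -0.98 at 0 h.

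A list of 11 other enzymes of the pathway did not share 1 direction above 30% mt. At least 2-fold higher at 48 h were 3 of the 11, against 32.0% of all genes, namely Acat2, which condenses acetyl-CoA (1.39), Lbr, a sterol reductase of the nuclear envelope (1.09), and Pmvk, phosphomevalonate kinase (1.08). At least 2-fold lower were 6 of the 11, against 5.61% of all genes, with Msmo1 (-2.04) and Hsd17b7 (-1.60), which take part in removing methyl groups from the ring, and the sterol reductase Tm7sf2 (-2.01) the lowest. Acat2, which acts just before Hmgcs1, had 26.3 CPM at 0 h and 69.0 CPM at 48 h. Over the 8 enzymes of both lists up to squalene the median was -0.58, with 2 higher and 2 lower at least 2-fold, and over the 12 after it -0.96, with 1 higher and 6 lower. Under 2% mt, 0 of the other 11 were at least 2-fold higher (23.2% of all genes) and 6 were lower (21.7%), with Msmo1 (-2.81), Hsd17b7 (-2.67) and Tm7sf2 (-1.66) again the lowest. Across the 20 enzymes of both lists, 3 were higher and 8 lower above 30% mt, and 0 higher and 12 lower under 2% mt.

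**Figure D2:**
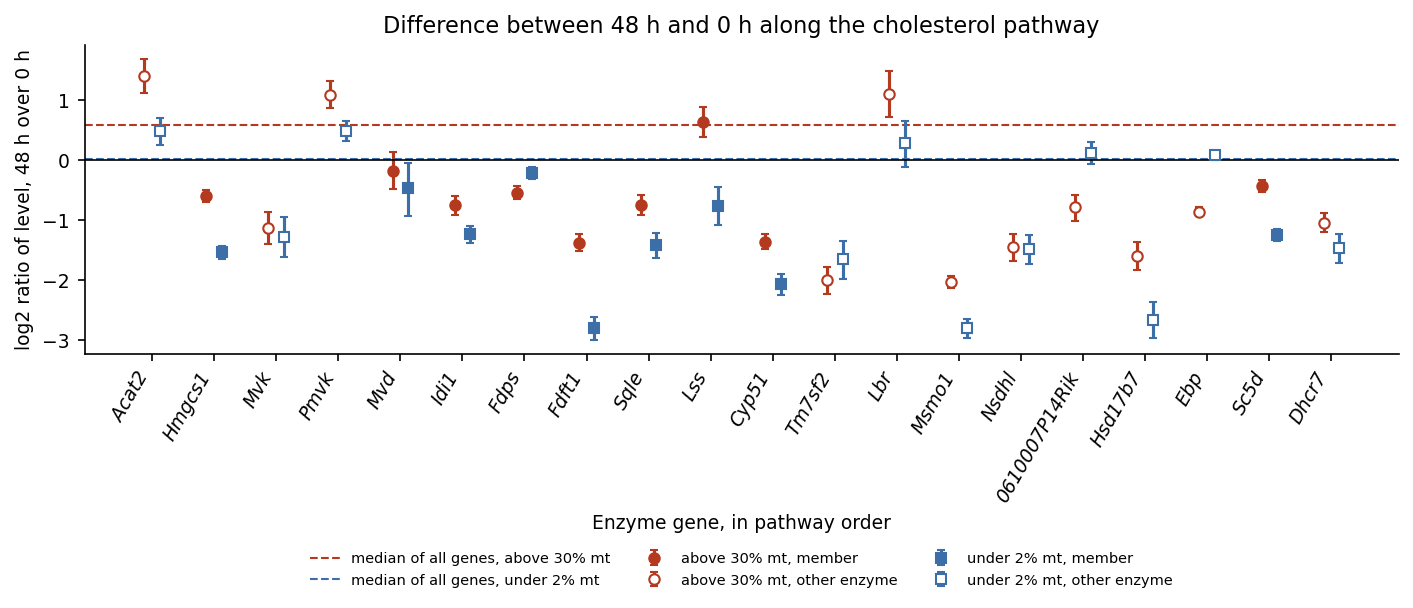
Log2 ratio of the level at 48 h over that at 0 h (vertical axis) for 20 enzymes in pathway order, with red circles above 30% mt, blue squares under 2% mt, filled symbols for the 9 members and open ones for the 11 other enzymes, bars for 95% counting intervals and dashed lines for the median of all genes (0.58 and 0.02). All filled symbols but the red one of Lss lie below 0, while Acat2, Pmvk and Lbr lie above 1 in the red class.

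Of the 7 SREBP control genes, 0 were at least 2-fold higher at 48 h, against 32.0% of all genes above 30% mt and 23.2% under 2% mt. Above 30% mt, 1 of the 7 was at least 2-fold lower (5.61% of all genes), the retention factor Insig2, at 384 CPM at 0 h and 81.3 CPM at 48 h (-2.24, -2.39 to -2.09). The others ran from Insig1 (-0.69), Scap (-0.59) and Srebf2 (-0.56) to Mbtps1, a protease that releases SREBPs (0.30), and Srebf1, whose protein favours fatty acid synthesis (0.57). Under 2% mt, 6 of 7 were at least 2-fold lower (21.7% of all genes), with Insig2 (-3.09), Scap (-2.39) and Srebf2 (-2.03) lowest. Of 6 genes of cholesterol uptake and transport, 4 of which passed the minimum of 10 CPM, 0 passed 2-fold in either direction above 30% mt (32.0% and 5.61% of all genes), where the lipid transfer protein Stard4 stood at 0.75, the lipoprotein receptors Scarb1 and Lrp1 at -0.35 and -0.47 and the lysosomal transporter Npc1 at -0.45. Under 2% mt 2 were lower (21.7% of all genes), Lrp1 (-2.44) and Npc1 (-1.77), and Npc1l1 had 0 UMIs in all 4 sets.

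The level of the enzymes was also followed over 6 bins of mt share, to see the barcodes between the classes. At 0 h the sum was 2952 CPM under 2% mt, 2512 from 2% to 10%, 2523 from 10% to 30%, 2201 from 30% to 50% and 2082 from 50% to 70%. Only 18 barcodes were above 70%, with an interval of 1454 to 3877 CPM. At 48 h the sums in the same order were 1108, 723, 1258, 1380 and 1254 CPM, and 1378 CPM above 70%. Every bin at 48 h lay below every bin at 0 h, the highest at 48 h being 1380 (1333 to 1429) and the lowest at 0 h 2082 (2007 to 2159), while the order of bins within a library differed between the libraries. The intervals of the bins above 70% mt overlapped, at 1234 to 1533 CPM at 48 h and 1454 to 3877 CPM at 0 h.

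**Figure D3:**
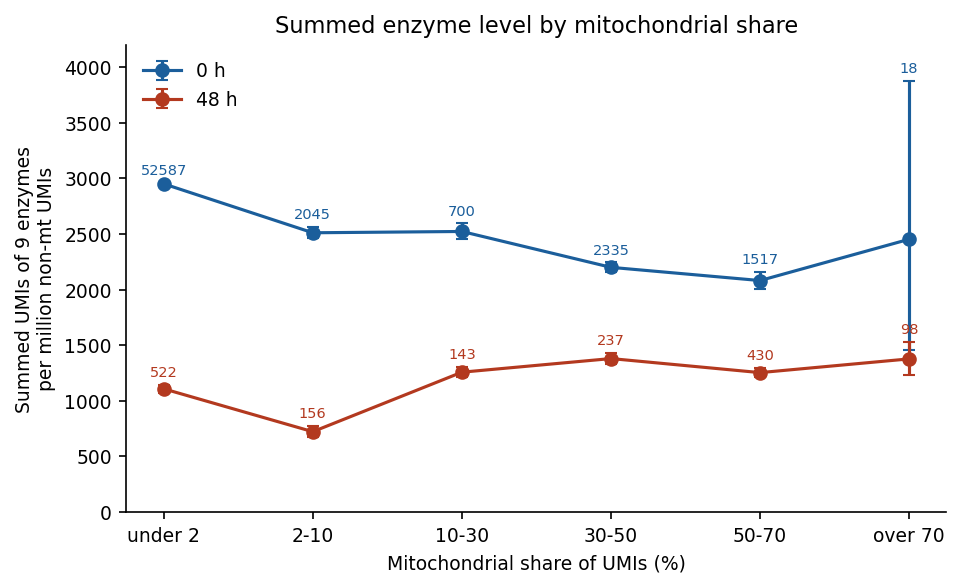
Summed level of the 9 enzymes in CPM on non-mitochondrial UMIs (vertical axis) by mt share of the barcode in percent (horizontal axis), for 0 h in blue and 48 h in red, with 95% Poisson intervals and the number of barcodes beside each point. The 0 h points lie between 2082 and 2952 CPM and the 48 h points between 723 and 1380 CPM.

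Hepatocyte function varies along the liver lobule from the portal vein (periportal) to the central vein (perivenous). Barcodes above 30% mt with at least 1000 non-mitochondrial UMIs and few markers of other cells, 2464 at 0 h and 759 at 48 h, were placed in tertiles, 3 groups of about equal size, by the share of 7 perivenous among 7 perivenous and 8 periportal genes, none of them a member. This score is a range and not a cell type, and 567 and 212 barcodes at 0 h and 249 and 84 at 48 h lay near its limits. The summed level of the 9 enzymes was 1916 CPM (1850 to 1984) in the periportal tertile, 2091 (2024 to 2161) in the middle and 2642 (2555 to 2732) in the perivenous tertile at 0 h. At 48 h it was 1190 (1146 to 1235), 1143 (1089 to 1198) and 1760 (1688 to 1835) CPM. The perivenous tertile stood above the periportal one by 0.46 (0.39 to 0.53) at 0 h and 0.56 (0.48 to 0.65) at 48 h on the log2 scale, and by 0.39 and 0.57 when Cyp2e1 and Cyp2f2, abundant genes of the score, were left out. The tertiles are ranges of barcodes of 1 library each, so these intervals too cover counting error only. From the periportal to the perivenous tertile, median depth was 1517, 1737 and 1490 non-mitochondrial UMIs at 0 h. At 48 h it was 6574, 4304 and 3671, and its part in the gradient was not tested.

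The members did not share this gradient evenly. At 0 h Fdps (1.11, 0.93 to 1.30), Mvd (1.10, 0.52 to 1.69), Fdft1 (0.96, 0.77 to 1.15) and Hmgcs1 (0.57, 0.41 to 0.73) were higher in the perivenous tertile, and at 48 h these 4 stood at 0.89, 0.67, 0.93 and 0.81. Without Cyp2e1 and Cyp2f2 in the score, Mvd stood at 0.35 (-0.23 to 0.93) at 48 h, an interval that held 0. Cyp51 was higher there at both time points, at 0.32 (0.14 to 0.50) and 0.53 (0.27 to 0.79), and the interval of Lss held 0 at both. Idi1 stood at 0.17 (-0.08 to 0.43) at 0 h and 0.81 (0.52 to 1.10) at 48 h, and Sqle at 0.12 (-0.14 to 0.38) and -0.49 (-0.85 to -0.15). Sc5d stood at -0.21 (-0.38 to -0.04) and 0.22 (0.04 to 0.40), and without Cyp2e1 and Cyp2f2 in the score its 0 h interval held 0. The intervals of Idi1, Sqle and Sc5d at the 2 time points did not overlap, and these differences between single libraries were not tested.

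Set side by side by tertile, the 48 h sums were lower than the 0 h sums in each. The log2 ratios were -0.69 (-0.76 to -0.61) in the periportal, -0.87 (-0.96 to -0.79) in the middle and -0.59 (-0.66 to -0.51) in the perivenous tertile. The interval of the middle tertile overlapped neither of the others. Without Cyp2e1 and Cyp2f2 in the score it overlapped that of the periportal tertile, at -0.79 (-0.87 to -0.71) against -0.75 (-0.83 to -0.68). With the full score, Cyp51 ran from -1.52 to -1.17 and Fdft1 from -1.63 to -1.26 over the tertiles. Lss was higher at 48 h in each of them, at 0.56 (0.12 to 1.01), 0.47 (0.01 to 0.94) and 0.92 (0.38 to 1.48). Without Cyp2e1 and Cyp2f2 its periportal value was 0.37 (-0.06 to 0.81), an interval that held 0. The limits of the tertiles were set in each library by itself, and the perivenous genes summed to 5655 CPM at 0 h and 2255 CPM at 48 h over all barcodes above 30% mt.

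**Figure D4:**
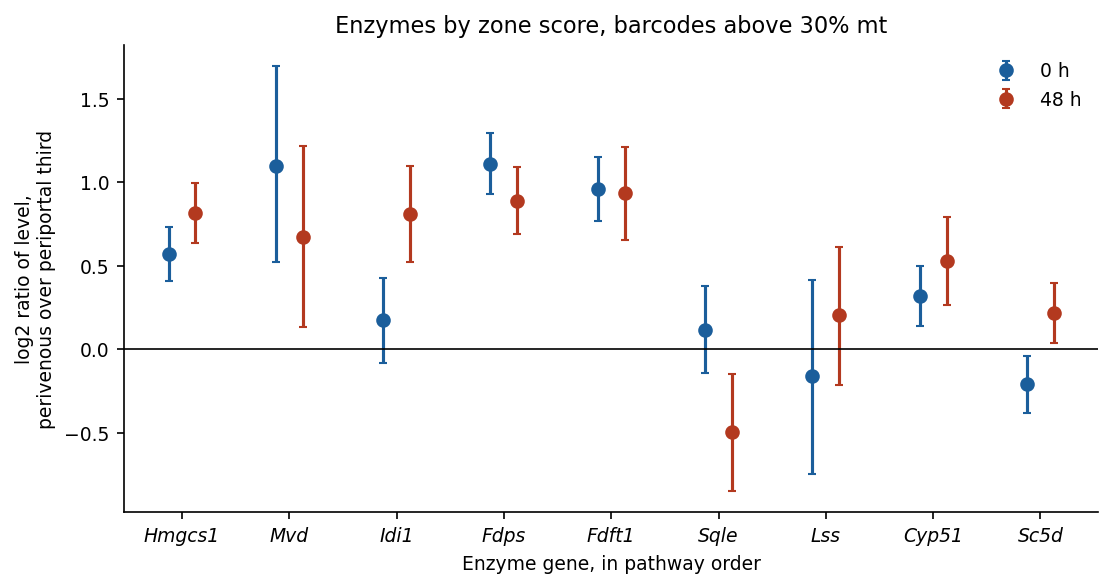
Log2 ratio of the level in the perivenous tertile over that in the periportal tertile (vertical axis) for the 9 enzymes in pathway order, in barcodes above 30% mt, with blue for 0 h, red for 48 h and bars for 95% counting intervals. Hmgcs1, Mvd, Fdps, Fdft1 and Cyp51 lie above 0 at both time points, and Sqle at 48 h and Sc5d at 0 h lie below 0.

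Hepatocytes divide in the days after PHx, and 16 genes of mitosis summed to 11.1 CPM at 0 h and 732 CPM at 48 h above 30% mt. At 48 h the summed level of the 9 enzymes was 1199 CPM (1145 to 1255) in the tertile of barcodes with the lowest share of mitosis UMIs, 1204 (1155 to 1256) in the middle and 1546 (1488 to 1606) in the tertile with the highest share, a log2 ratio of 0.37 (0.28 to 0.45) between the outer tertiles. The highest tertile had a median of 3896 non-mitochondrial UMIs against 4462 in the lowest, and 2529.6 against 2122 CPM of perivenous genes, and the part of either in this difference was not tested. Idi1 (0.82), Cyp51 (0.58), Hmgcs1 (0.52), Sc5d (0.50) and Fdps (0.34) were higher in the highest tertile, Mvd (-0.67, -1.32 to -0.04) and Sqle (-0.43, -0.77 to -0.09) were lower, and the intervals of Fdft1 and Lss held 0. At 0 h only 44 of 2464 barcodes held a mitosis UMI, and their ratio to the rest was 0.00 (-0.20 to 0.20).

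To compare single barcodes at equal depth, each was thinned to 1000 non-mitochondrial UMIs, which left out 1399 shallower barcodes above 30% mt at 0 h, 4 at 48 h and 0 under 2% mt. The mean number of enzyme UMIs per barcode was then 2.20 above 30% mt and 2.96 under 2% mt at 0 h, and 1.31 and 1.19 at 48 h. Before thinning these means were 4.18, 4.42, 8.83 and 6.66, at median depths of 1563, 1413, 4428 and 5271.5 UMIs. The ratio of variance to mean, which is 1 where counting alone spreads barcodes of 1 common level, was 1.10 and 1.01 at 0 h and 1.41 and 1.11 at 48 h. At 500 UMIs it was 1.09, 1.01, 1.15 and 1.02. The correlation of 1 member with the sum of the other 8 over barcodes above 30% mt at 48 h ran from 0.04 for Sqle to 0.18 for Hmgcs1 (n = 761 barcodes of 1 library at equal depth), and at 500 UMIs from 0.01 for Sqle to 0.07 for Sc5d. For Hmgcs1 it was 0.06 at 500 UMIs, and over the 52587 barcodes under 2% mt at 0 h it lay within 0.01 of 0 for every member. These counts are sparse, free RNA in droplets adds UMIs to any barcode, and the values are given as a description.

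**Figure D5:**
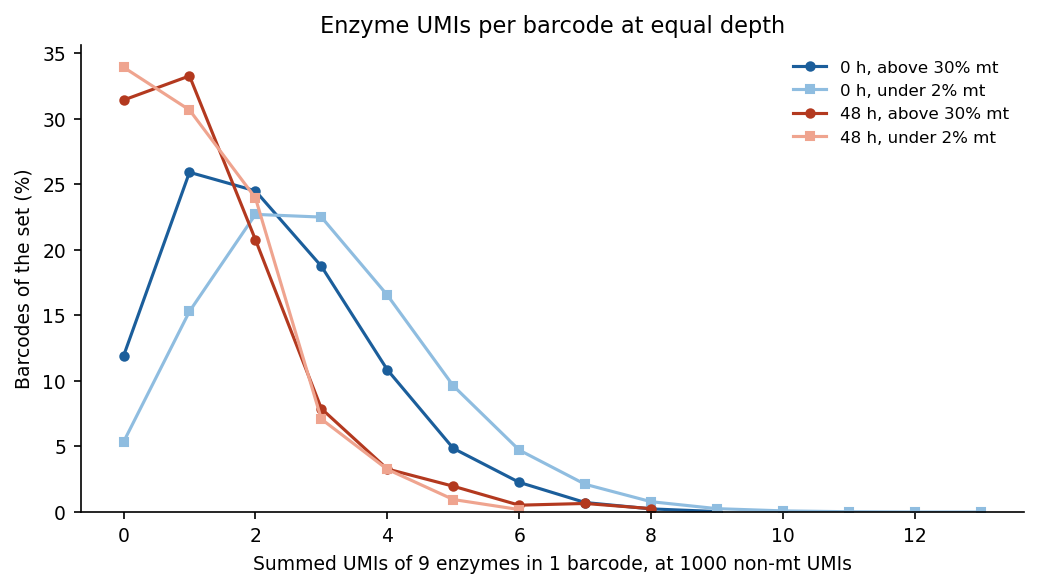
Share of barcodes in percent (vertical axis) by their summed UMIs of the 9 enzymes at 1000 non-mitochondrial UMIs (horizontal axis), for the 4 sets, with circles above 30% mt, squares under 2% mt, blue for 0 h and red for 48 h. The 48 h curves peak at 0 or 1 UMI, with means of 1.31 and 1.19, and the 0 h curves extend to higher counts, with means of 2.20 and 2.96.

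Among 2164 genes with a mean of at least 50 CPM, those whose centred log2 levels over the 4 sets lay nearest to the summed enzymes were Cept1, an enzyme of phospholipid synthesis (Euclidean distance 0.15), Mettl7a1 (0.177), Acadsb, a mitochondrial acyl-CoA dehydrogenase (0.186), Sdc2, a cell surface proteoglycan (0.202), and Tspan12 (0.205). Cept1 had 86.4 and 114 CPM at 0 h and 54.7 and 39.9 CPM at 48 h, above 30% and under 2% mt respectively. The likeness rests on 4 sets from 2 libraries.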

How the data were processed

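Reads were processed by the authors with Cell Ranger and mm10 (named in the submitters' processing notes, version not given in the sources used here), who deposited, per library, a matrix of raw UMI counts per gene and barcode. Counts were summed over the barcodes of each set and scaled to non-mitochondrial UMIs. Exact Poisson intervals were given for levels, exact conditional binomial intervals for ratios of a pair of sets, and a normal approximation on the log scale for differences of ratios, all at 95% and all for counting error only. A gene was called at 2-fold with an interval that left out 0, among the 6349 genes with a mean of at least 10 CPM, which all 9 members passed. No p-value was computed, since each group held 1 library. The ratio script was tested on simulated data.

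The members and gene lists were chosen with earlier results of these data known. The named genes were all 9 members, and from each fixed list those with the highest and lowest ratios. Some genes of these lists are not reported here and were left out of the lists' counts. Cell identity was checked by marker lists, and 3 markers without an entry in the matrices (Trac, Igkc and Ighm) were not analysed here. Doublets were not removed. Gene positions came from GENCODE M21 on GRCm38 by gene ID (9 of 9 matched), and promoters from RefSeq GRCm38.p6. The promoters of Fdps, Fdft1 and Sqle were not used here. Alternatives covered the mt limits, the scaling (all UMIs, without the 20 most abundant genes, TMM of edgeR 4.0.16 and size factors of DESeq2 1.42.0, used for scaling only, in R 4.3.3), mean single-barcode CPM, at least 1000 UMIs, 5 CPM added, a 1.5-fold limit, and leaving out barcodes with other markers, the deepest 5% of barcodes or, chosen after seeing the data, barcodes held by both libraries. Analyses used Python 3.11.15, numpy 2.4.6, scipy 1.17.1, pandas 2.3.3 and matplotlib 3.10.9.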

Additional observations from a re-analysis of the deposited data

Results flagged for a closer look

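For 5 members the difference between barcodes above 30% and under 2% mt went opposite ways in the 0 h and the 48 h library, with both counting intervals leaving out 0. The 48 h ratio exceeded the 0 h ratio by 1.42 for Fdft1 (-0.81 at 0 h, 0.61 at 48 h), 1.39 for Lss (-0.31, 1.08), 0.94 for Hmgcs1 (-0.76, 0.19), 0.82 for Sc5d (-0.53, 0.29) and 0.71 for Cyp51 (-0.12, 0.60) on the log2 scale. The median of all genes also went from -0.11 at 0 h to 0.53 at 48 h, with 44.7% and 67.5% of them above 0. The share of all genes that went opposite ways by the same rule is not given here, so the 5 members cannot be set against it. Scaled by all UMIs, these 5 had ratios below 0 at both time points, with an interval that held 0 for Lss at 48 h. By all UMIs the median of all genes was below 0 as well, at -0.98 at 0 h and -0.60 at 48 h. Under TMM and DESeq2 size factors Hmgcs1 and Sc5d were lower at both, and the 48 h intervals of Fdft1 and Cyp51 held 0, so that Lss alone kept intervals on opposite sides of 0. For Sc5d the ratio of the perivenous over the periportal tertile also went opposite ways, at -0.21 at 0 h and 0.22 at 48 h, a difference of 0.43. With 1 library per time point these differences were not tested.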

How the results depend on the processing

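No paired analysis was possible because each group held 1 library. Other scalings moved all genes together. The median gene above 30% mt stood at 0.58 for 48 h over 0 h in the reported scaling, 0.32 by all UMIs, 0.09 under TMM and 0.05 under DESeq2 size factors, and the members stayed 1.18 below it in each of these. The members' median there moved from -0.60 to -0.71 with barcodes above 50% mt, -0.86 by all UMIs, -0.85 without the 20 most abundant genes, -1.09 under TMM and -1.13 under DESeq2 size factors. The 2 members at least 2-fold lower became 4 by all UMIs, 6 under TMM, 6 under DESeq2 and 5 at a 1.5-fold limit, and the 0 higher became 1 above 50% mt and 1 at 1.5-fold. The counts under other settings in this section stand without a share of all genes. Under 2% mt the median moved only without the 20 most abundant genes, to -1.49. Between classes at 0 h, the median was -1.18 by all UMIs, against -0.98 for all genes. The higher count was 1 above 50% mt and 1 at 1.5-fold, and the lower count 1 above 50% mt, 5 by all UMIs and 3 at 1.5-fold. Mvd (-0.062) and Fdps (-0.66) turned by all UMIs. Between classes at 48 h, the median turned to -0.53 by all UMIs and was 0.13 under TMM and 0.017 under DESeq2. The median of all genes there was -0.60 by all UMIs, 0.06 under TMM and -0.05 under DESeq2. The 2 higher members became 0 by all UMIs, TMM, DESeq2 and with 5 CPM added, and 5 at 1.5-fold, and 2 were lower by all UMIs. By all UMIs Hmgcs1 (-0.94), Sc5d (-0.84), Cyp51 (-0.53), Fdft1 (-0.52), Sqle (-0.50), Lss (-0.048) and Mvd (-0.033) turned there, as did Hmgcs1 (-0.28) and Sc5d (-0.18) under TMM and Hmgcs1 (-0.39) and Sc5d (-0.29) under DESeq2. The difference of the time ratios had a median of 0.45 by all UMIs, 0.33 under TMM and 0.16 under DESeq2, where Idi1 turned to -0.067 and Mvd to -0.26, after -0.09 under TMM. For 48 h over 0 h above 30% mt, the interval of Lss held 0 under TMM (0.14) and DESeq2 (0.10), and that of Mvd left out 0 (-0.67 and -0.71). Of the summary values, 148 moved within counting error or stayed within 1.5 times the count, 29 moved further and 1 turned. UMI depth limits Mvd and Lss most, with 46 and 88 UMIs under 2% mt at 48 h.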

Other observations

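Of 9 genes that carry cholesterol out of the cell or into esters, 7 of which passed the minimum of 10 CPM, 1 was higher (32.0% of all genes) and 1 lower (5.61%) above 30% mt. There the sterol sensor Nr1h3 was at least 2-fold higher at 48 h, at 70.3 CPM at 0 h and 156 CPM at 48 h (log2 ratio 1.15, counting interval 0.97 to 1.32), and Lcat, a secreted enzyme that esterifies cholesterol in plasma, was at least 2-fold lower, at 638 and 271 CPM (-1.24, -1.33 to -1.15). The cholesterol exporter Abca1 had 189 and 178 CPM (-0.08, -0.21 to 0.04), below the median of all genes at 0.58. Under 2% mt 3 of the 9 were at least 2-fold lower (21.7% of all genes), among them Abca1 (-2.23) and the biliary exporter Abcg8 (-1.56). In that class 0 were at least 2-fold higher (23.2% of all genes). These values compare single libraries and were not tested.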
